A study of Mus musculus with 30 samples.

Results

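The regions described here are stretches of chromatin outside protein-coding genes and away from gene ends that carried histone H3 acetylated at lysine 9 (H3K9ac) together with RNA polymerase II phosphorylated at serine 5 of its tail (POLR2S5), in N1E115 cells, a mouse neuroblastoma line. They were selected on called peaks. H3K9ac peaks of 4 libraries were merged into 104182 regions, and 39931 of these had a peak in all 4. Of those, 8481 were under 4000 bp wide, outside every protein-coding gene and more than 2.5 kb from the end of any RefSeq gene. The 5286 with a POLR2S5 island in 2 or more of 4 libraries are called distal POLR2S5 regions below. Islands are the broad intervals of enriched reads that the SICER program reports. Because H3K9ac peaks and POLR2S5 islands chose the members, values of these 2 measures are given as description, with no test.

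The cells are labelled NOS1+ and neuroblast, and were grown for 3 days in 4% or 20% O2. Each of 6 antibodies was used on 2 libraries per O2 level: CTCF, the cohesin subunit RAD21, H3K9ac, RNA polymerase II (POLR2), POLR2S5, and polymerase phosphorylated at serine 2 (POLR2S2). All values come from 1 line, and the labels do not state whether paired libraries were grown as separate cultures, so the spread between them may be technical. In bulk chromatin, fewer cells carrying a protein and less of it per cell cannot be told apart. Around gene ends, H3K9ac peaks in all 4 libraries marked 11 of 12 neuroblast markers, among them Hand2, Th and Mycn but not Gata3. Endothelial markers had none of 4, and macrophage markers 1 of 5 (Cd68).

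Enhancers and gene starts are both acetylated at H3K9 when active. RNA polymerase II is phosphorylated at serine 5 soon after it starts transcription and at serine 2 as it elongates through a gene. Polymerase is known to start at many active enhancers, where it makes short, unstable RNAs. CTCF binds a long DNA motif, and cohesin, which extrudes chromatin loops, is held at many CTCF sites.

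A short DNA window at an annotated noncoding start could be read for a few of these regions, and shows what such a start looks like. In all, 21 members overlapped 25 start windows of long noncoding RNA (lncRNA) genes, each reaching from 250 bp before a start to 50 bp after it. These starts lay inside the gene, away from its outer ends. The 4 windows shown are from members with POLR2S5 in all 4 libraries, 1 window per gene, in RefSeq sequence of GRCm38.p6 and on the minus strand, which is the strand of all 4 genes. They are C330002G04Rik (chr19:23058043-23058342), Gm31816 (chr9:47307951-47308250), Gm35551 (chr17:84044537-84044836) and Mexis (chr4:53265443-53265742). Capitals mark matches, on either strand, to any of 6 short motifs.
C330002G04Rik: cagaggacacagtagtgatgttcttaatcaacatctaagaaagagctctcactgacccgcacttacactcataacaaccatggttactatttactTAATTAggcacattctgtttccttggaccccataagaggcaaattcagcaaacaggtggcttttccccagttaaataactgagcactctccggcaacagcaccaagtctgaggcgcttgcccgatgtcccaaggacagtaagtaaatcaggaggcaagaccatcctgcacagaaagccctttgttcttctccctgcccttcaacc
Gm31816: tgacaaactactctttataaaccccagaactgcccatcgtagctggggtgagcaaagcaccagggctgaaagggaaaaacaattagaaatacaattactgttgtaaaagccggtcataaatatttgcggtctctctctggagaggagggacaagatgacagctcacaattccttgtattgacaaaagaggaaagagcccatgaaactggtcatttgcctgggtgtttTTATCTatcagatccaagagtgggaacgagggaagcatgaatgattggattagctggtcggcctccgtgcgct
Gm35551: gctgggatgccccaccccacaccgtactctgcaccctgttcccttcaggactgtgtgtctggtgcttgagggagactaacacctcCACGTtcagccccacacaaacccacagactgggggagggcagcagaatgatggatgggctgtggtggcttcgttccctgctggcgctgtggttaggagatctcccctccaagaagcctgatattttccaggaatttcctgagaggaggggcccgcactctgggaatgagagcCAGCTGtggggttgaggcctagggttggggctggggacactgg
Mexis: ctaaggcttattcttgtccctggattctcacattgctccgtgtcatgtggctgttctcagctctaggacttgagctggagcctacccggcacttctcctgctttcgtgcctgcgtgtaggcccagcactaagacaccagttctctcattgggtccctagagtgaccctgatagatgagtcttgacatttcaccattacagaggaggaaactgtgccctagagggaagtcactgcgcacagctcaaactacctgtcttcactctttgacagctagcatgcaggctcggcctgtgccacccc

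The homeobox letters TAATTA stand in the C330002G04Rik window, the GATA letters AGATAA (read on the other strand) in Gm31816, and both the core of the hypoxia-inducible factor (HIF) site ACGTG (other strand) and the E-box CAGCTG in Gm35551. A window need not lie wholly inside its member, and overlap ranged from 52 to 300 bp among the 25. At Gm35551 it was 230 bp, and CAGCTG lies in the part of the window outside the member. The Mexis window held none of the 6. Over the 25 windows, ACGTG was found in 6, against 19.6% of 32851 listed mouse promoters of the same length, and CAGCTG in 6, against 16.3%. AGATAA was found in 6 windows, against 11.2%, and TAATTA in 3, against 5.29%. All 3 TAATTA windows are overlapping windows of C330002G04Rik that share 1 site, so they are not separate finds. Some of the ACGTG windows overlap as well. The AP-1 letters TGANTCA were in 1 window, against 7.81%, and the CRE letters TGACGTCA in 0, against 1.79%. Some of the 25 windows overlap each other, none of the motifs contains another, and a match is a description of letters only.

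The members at these 4 windows were shown because each had POLR2S5 in every library. Their POLR2S5 reads per kb stood at mean percentiles of 57.5 (Mexis) to 76.4 (C330002G04Rik) among all islands of a library. The member at Mexis, an lncRNA gene beside the cholesterol transporter gene Abca1, had POLR2S5 islands of 178 and 98 reads at 4% O2 and 133 and 85 at 20% O2. Its H3K9ac score stood at percentile 73.0 on average, where a percentile ranks a region among all regions called in all 4 libraries. The member at Gm35551 had 83, 71, 86 and 89 POLR2S5 reads in the same order, and a mean H3K9ac percentile of 17.9. The Mexis member thus ranked higher in acetylation and had more POLR2S5 reads in 3 of 4 libraries. The member at C330002G04Rik had 292, 110, 180 and 188 reads, and was the only one of the 4 with a POLR2 island in every library. At Gm31816 the POLR2S5 reads were 204, 155, 182 and 126.

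The members were wider and ranked higher in H3K9ac than the 2001 distal acetylated regions with no POLR2S5 island in any library, the first comparison set. Their median width was 1344.5 bp, with quartiles of 879 and 1994 bp, against a median of 909 bp without POLR2S5. The second comparison set had a median of 1458 bp. It held 16579 acetylated regions with POLR2S5 in 2 or more libraries, within 2.5 kb of either end of a protein-coding gene, inside or outside the gene. The median H3K9ac percentile was 47.6 in the members, 21.5 without POLR2S5 and 60.9 at gene ends. By library, the members' median percentile was 50.5 and 43.7 at 4% O2 and 55.1 and 43.7 at 20% O2. Both distal sets span nearly the whole range of ranks, as the plot of H3K9ac score and width shows.

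**Figure D1:**
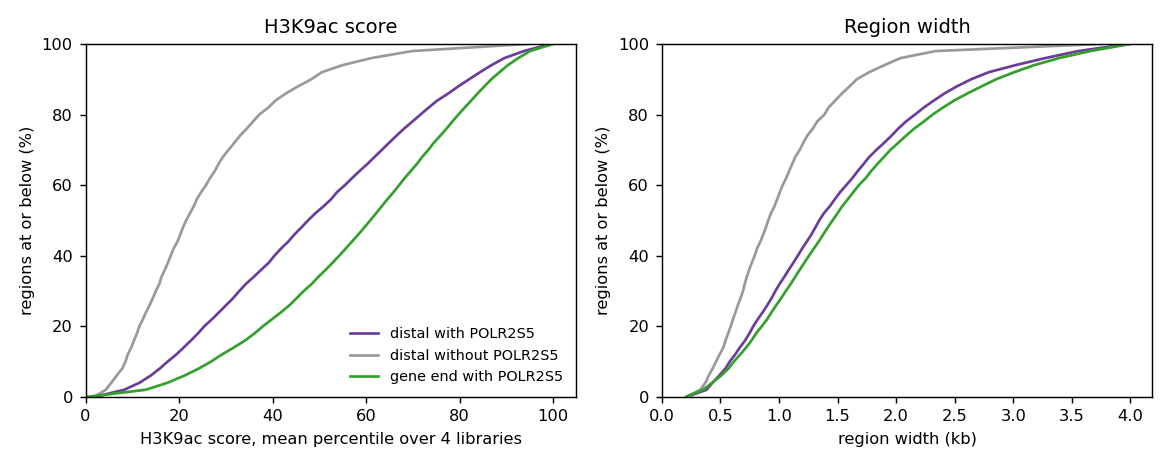
Cumulative share of regions (%) against mean H3K9ac score percentile (left) and region width in kb (right) for 5286 distal regions with POLR2S5, 2001 distal regions without it and 16579 gene-end regions with it. The members' curve lies between the others for H3K9ac, with median percentiles of 47.6, 21.5 and 60.9; for width it does so at the median, but at the narrowest 2% of regions the members are widest (383 bp, against 329 and 353 bp).

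POLR2S5 calls at distal acetylated regions were graded. An island was found in 0 libraries at 2001 regions, in 1 at 1194, in 2 at 1106, in 3 at 2418 and in 4 at 1762. The share of members with an island was 89.7% and 90.2% at 4% O2, but 37.2% and 95.4% at 20% O2. Replicate 1 at 20% O2 therefore stood apart, and the most common pattern, at 2277 members, was an island in every library except that one. Its polymerase islands held fewer reads and its RAD21 list fewer peaks than those of the other libraries, though its CTCF list was the longest of 4: its POLR2S5 islands held 5.93 M reads (M, 1000000) against 10.98 to 12.4 M in the others, its POLR2 islands 2.06 M against 5.93 to 10.2 M, and its RAD21 list 26908 peaks against 39012 to 73328. Left out of the choice of members, it changed their number only from 5286 to 5224.

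With the number of libraries that had POLR2S5, median width went from 1117 bp at 1 library to 1245.5 bp at 2, 1382 bp at 3 and 1377 bp at 4. Median H3K9ac percentile went from 29.6 to 35.7, 48.0 and 57.3 over the same steps. The share with a POLR2 island, averaged over libraries, went from 24.4% to 44.2%, 68.6% and 87.7%. For POLR2S2 it went from 1.86% to 6.08%, 23.9% and 55.2%. At the edge of the rule, the widest member was 3984 bp, 36.9 kb from Ndfip1, and the first region outside was 4017 bp wide, near Neurl1b, with POLR2S5 in all 4 libraries. The member closest to the end of any RefSeq gene was 2502 bp from it. The first region outside was 2500 bp from such an end, with POLR2S5 in 3 libraries. Their nearest protein-coding genes, Tex35 for the member and Cemip2 for the region outside, lay farther away. Members carry H3K9ac and POLR2S5 by the rule, so sharing these with the regions just outside is description only. POLR2 was called in 1 library at the Tex35 member and in 3 at the Cemip2 region.

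The median distance to the end of any RefSeq gene was 9481.5 bp. The median distance to a protein-coding gene end was 20551 bp, against 46222 bp for the distal regions without POLR2S5. Of the members, 1511 (28.6%) were within 10 kb and 1347 (25.5%) beyond 50 kb. A total of 659 (12.47%) lay inside an lncRNA gene, against 15.0% of the regions without POLR2S5. The X chromosome held 91 members (1.72%, against 1.85% of all regions with H3K9ac in all 4 libraries) and the Y chromosome 0 (0% of both).

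Neighbouring members were linked into groups when they lay within 12.5 kb of each other. Of the 5286, 3252 (61.5%) had another member within that distance, in 1256 groups, of which 68 had 5 or more. That share was not set beside one for other acetylated regions, so it is not read as a trait of the members. The group with the most members, 12 within 63.2 kb (chr11:117046563-117109802), lay 5366 bp from Sec14l1, and all 12 had POLR2 in 2 or more libraries and 9 had POLR2S2. Next to Ptma, the gene of the nuclear protein prothymosin alpha, 11 members (chr1:86486720-86523724) all had POLR2S5 in all 4 libraries, all had POLR2 and 10 had POLR2S2 in 2 or more. A group of 11 near Lrrc74a also had POLR2 throughout, but POLR2S2 at 2. The 9 members beside Dlk1 (chr12:109407307-109447614), an imprinted gene for a Notch-related membrane protein, likewise all had POLR2, and 2 had POLR2S2. Groups alike in POLR2 thus differed in POLR2S2. Members of a group often share 1 island and are not independent.

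Islands at the members were mostly free-standing. At 4284 members (81.0%) all POLR2S5 islands lay outside protein-coding genes, and at 1291 of these an island was present in all 4 libraries. The other 1002 members were covered by at least 1 island that reached into a gene. Free-standing POLR2S5 islands at members had median lengths of 2.6 and 3.4 kb at 4% O2 and 2.4 and 3.2 kb at 20% O2. Islands that overlapped protein-coding genes had medians of 5.2, 7.4, 3.6 and 6.8 kb in the same libraries. Per kb of island, the free-standing ones held a median of 59.4, 41.0, 54.5 and 48.5 reads, and the genic ones 43.3, 42.3, 28.8 and 43.2. A long island is more likely to reach a gene and so to leave the free-standing class, so these lengths are not a comparison of like with like. SICER reports only islands past its threshold, so weak polymerase outside islands is not seen here.

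POLR2, measured with another antibody in other libraries, was present at most members. The share with a POLR2 island was 82.1% (replicate 1) and 83.2% (replicate 2) for 4% O2, then 22.7% and 91.4% for 20% O2. Among distal regions without POLR2S5 it was 4.95%, 5.20%, 0.150% and 15.0% in the same order, and at gene ends 95.2%, 97.5%, 65.5% and 98.6%. The members exceeded the distal regions without POLR2S5 in 4 of 4 libraries, by 63.5 ± 27.3 percentage points (mean and SD, n = 4; exact two-sided sign-flip permutation test, p = 0.125, the smallest p that 4 libraries allow). They were below gene ends in 4 of 4 libraries, with a difference of -19.3 ± 15.9 points (exact sign-flip test, p = 0.125). With POLR2S5 required in all 4 libraries for both sets, that difference was -6.44 points. Only 127 members (2.40%) had no POLR2 island in any library. The POLR2 antibody recognises the enzyme that POLR2S5 marks, and POLR2S2 is another form of that enzyme. These measures therefore overlap in what they detect, and a set chosen to lack POLR2S5 is not independent of them.

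The elongation form was much scarcer. POLR2S2 islands covered 35.9% and 48.2% of members in the 4% O2 libraries, against 7.55% and 30.9% in those of 20% O2. Without POLR2S5 the shares were 0.75%, 0.60%, 0.50% and 0.80%, and at gene ends they were 81.2%, 91.8%, 39.3% and 82.7%. No library's value in the members reached the same library's value at gene ends, and none fell to that of the distal regions without POLR2S5. The members were higher than the latter by 30.0 ± 17.0 points and differed from gene ends by -43.1 ± 8.40 points (exact sign-flip tests over 4 libraries, p = 0.125 for each). With POLR2S5 required in all 4 libraries for both sets, the difference from gene ends was -25.5 points.

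Read together per region, 1739 members (32.9%) had POLR2 in 2 or more libraries and POLR2S2 in none, a state found at 731 gene-end regions (4.41%). Both forms were present in 2 or more libraries at 1896 members (35.9%) and 14526 gene-end regions (87.6%). In the members whose islands reach a gene, the POLR2S2 share was 53.0 ± 21.2% (SD, n = 4 libraries), and in the free-standing members 25.4 ± 16.2%. The POLR2 share was 73.7 ± 31.0% and 69.0 ± 31.9% in these 2 subsets. POLR2S2 thus varied with contact to a gene more than POLR2 did, a description with no test since POLR2S5 islands define the subsets.

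**Figure D2:**
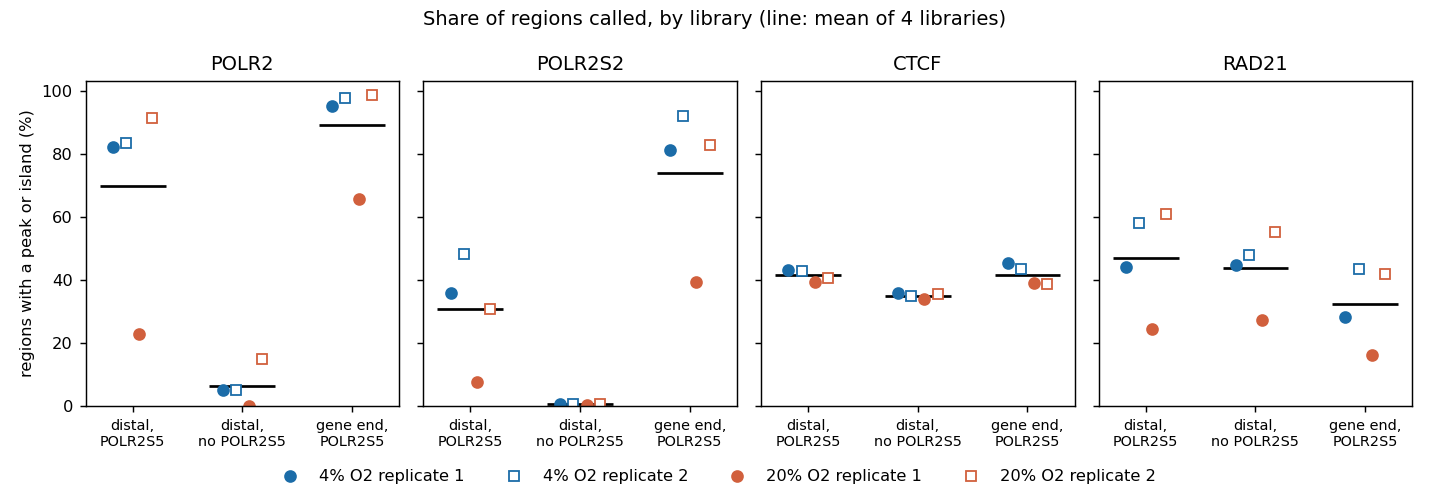
Share of regions (%) with a POLR2 island, POLR2S2 island, CTCF peak or RAD21 peak in 5286 distal regions with POLR2S5, 2001 distal regions without it and 16579 gene-end regions with it; each point is 1 library and the line is the mean of 4. The 20% O2 replicate 1 point is lowest for POLR2, POLR2S2 and RAD21 in every set, while the CTCF points of the members lie between 39.2 and 43.2.

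Coverage around the centres showed how local these signals were. POLR2 islands covered 68.5% of member positions 200 bp from the centre, averaged over 4 libraries, and 19.9% at 9800 bp upstream along the chromosome. At 1800 bp POLR2 coverage was 38.3%. POLR2S2 coverage was 28.0% near the centre, 14.8% at 1800 bp and 12.5% at 3400 bp, then rose to 16.4% at 9800 bp. At gene ends POLR2S2 covered 69.4% near the centre and 39.6% at 9800 bp. RAD21 and CTCF peaks gave narrow summits in the members, at 17.6% and 16.4% near the centre, against 22.9% and 18.97% without POLR2S5.

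**Figure D3:**
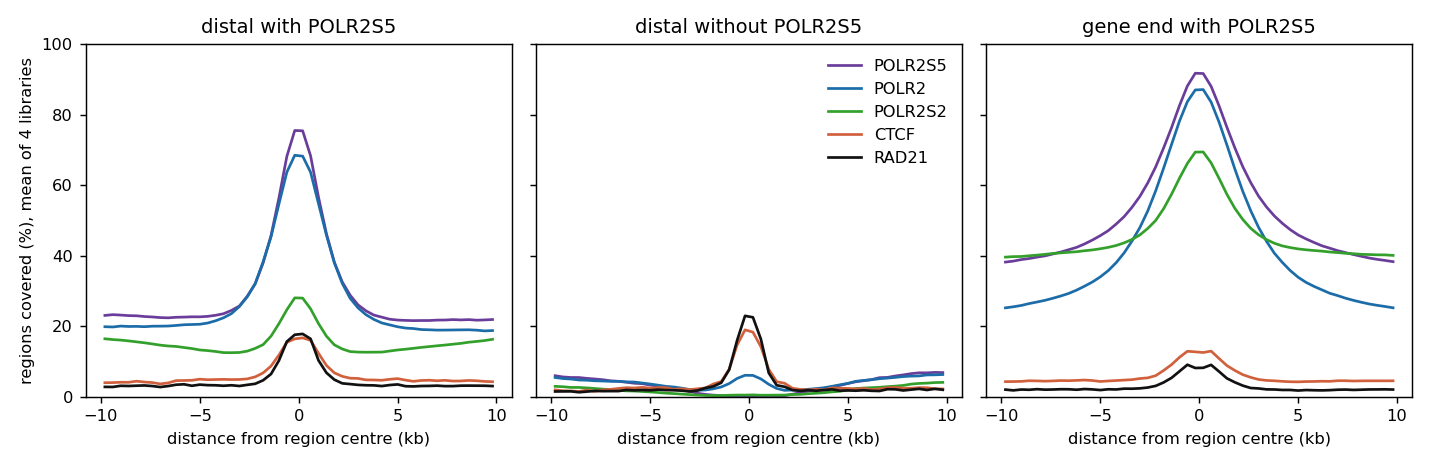
Mean share of regions (%) covered by an island or peak of each antibody against distance from the region's centre (kb), averaged over 4 libraries, in the 3 sets. In the members POLR2 falls from 68.5 to 19.9 at 9800 bp upstream, while POLR2S2 falls from 28.0 to 12.5 at 3400 bp and is 16.4 at 9800 bp; H3K9ac and POLR2S5 defined the sets.

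CTCF peaks were called at a similar share of members in every library. Those shares came to 43.2% and 42.7% for 4% O2, then 39.2% and 40.5% for 20% O2. They exceeded those of the distal regions without POLR2S5 in 4 of 4 libraries by 6.40 ± 1.40 points (exact sign-flip test, p = 0.125). Among regions with a mean H3K9ac percentile above 25 and at or below 50, chosen after the ranks were seen, the difference was -1.38 points (exact sign-flip test, p = 0.25), so its direction turned when acetylation was held to a band. The difference from gene ends was -0.27 ± 1.65 points, with 2 of 4 libraries on each side (exact sign-flip test, p = 0.75). With regions at least 1000 bp wide only, the difference from the distal regions without POLR2S5 was 16.9 points.

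RAD21 set the distal regions apart from gene ends. Its share in the members came to 44.2% and 57.9% for 4% O2, then 24.3% and 60.8% for 20% O2. At gene ends it was 28.3%, 43.4%, 16.2% and 41.9%, lower in 4 of 4 libraries, by 14.3 ± 4.57 points (exact sign-flip test, p = 0.125). Against distal regions without POLR2S5 the difference was 2.93 ± 5.90 points, with 2 libraries on each side (exact sign-flip test, p = 0.5). In the H3K9ac band named above it was -8.50 points, and among members with POLR2S5 in all 4 libraries -0.55.

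RAD21 was then split by CTCF, a comparison added after the shares were seen. At members with CTCF in all 4 libraries (n = 1821), RAD21 shares stood at 88.7% and 94.3% for 4% O2, then 68.5% and 95.6% for 20% O2. Gene-end regions with CTCF in all 4 (n = 5434) had 70.9%, 82.9%, 46.5% and 82.7%, lower in 4 of 4 libraries by 16.0 ± 4.87 points (exact sign-flip test, p = 0.125). Distal regions with CTCF but without POLR2S5 (n = 619) had 94.4%, 96.6%, 86.3% and 97.4%, and the members differed from them by -6.91 ± 7.45 points, lower in 4 of 4 (exact sign-flip test, p = 0.125). Where CTCF was absent from all 4 libraries, 2682 members still had RAD21 at 16.6%, 31.2%, 0.261% and 36.5%. The gene-end regions without CTCF (n = 7896) had 4.45%, 17.7%, 0.785% and 16.2%, a difference of 11.4 ± 8.69 points with 1 library, 20% O2 replicate 1, on the other side (exact sign-flip test, p = 0.25). Distal regions with neither CTCF nor POLR2S5 (n = 1205) had 19.7%, 22.2%, 0.415% and 32.5%, and the members differed from these by 2.45 ± 5.26 points, with 2 libraries on each side (exact sign-flip test, p = 0.5).

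In all, CTCF and RAD21 were both called in all 4 libraries at 1242 members (23.5%), against 532 (26.6%) of the distal regions without POLR2S5 and 2445 (14.8%) of gene-end regions. Neither protein had a peak in any library at 1430 members (27.1%), against 692 (34.6%) without POLR2S5. None of the 8 members with the highest H3K9ac percentile lacked both. A region 8.7 kb from Lsamp, a neuronal adhesion gene (chr16:42190339-42190859), had both proteins in all 4 libraries, while 1 at 69.6 kb from Arf6 had no CTCF peak and RAD21 in 3.

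The 8 members with the highest mean H3K9ac percentile ranged from 98.75 to 99.55. At the first of them, 7.5 kb from the bicarbonate transporter gene Slc4a8 (chr15:100751961-100754231), the 4 H3K9ac scores were 66.9 and 112.0 (4% O2), then 146.3 and 165.2 (20% O2). The score is the deposited value per peak, taken from its values to be −log10 q, and is not scaled between libraries. Its POLR2S5 islands held 2626, 3951, 1074 and 2525 reads, over 13.0 to 42.2 kb, and reached into a gene. By contrast the region 41.0 kb from the potassium channel gene Kcns2 (chr15:34793535-34796405), at a mean percentile of 99.0, had free-standing islands of 417, 307, 365 and 417 reads. It had POLR2 in all 4 libraries, at 360, 390, 291 and 397 reads, and no POLR2S2 island. Islands of the 8 differed widely: at a region 30.7 kb from Ctnnbl1, at a mean percentile of 99.4, they lay outside genes and were 5.8, 30.0 and 7.0 kb long in the 3 libraries that had one.

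Ranked by POLR2S5 reads per kb instead, the 6 leading free-standing members formed 3 pairs that each shared their islands. The pair 45.1 and 47.0 kb from Rbx1 (chr15:81521442-81523284 and chr15:81523398-81525311), a gene for a ubiquitin ligase subunit, had 1048 and 2148 reads at 4% O2 and 499 and 1155 at 20% O2. POLR2 islands there held 859, 2175, 429 and 1108 reads. A pair near Apol7a (chr15:77357996-77358782 and chr15:77358897-77360485) had long islands of 18 to 19.8 kb with 2552, 2560, 1980 and 2515 reads, and CTCF and RAD21 in all 4 libraries. A POLR2S2 island was called there in 1 library, 4% O2 replicate 2. The pair near the zinc finger gene Zfp958 had 584, 540, 499 and 683 POLR2S5 reads in islands of 3.6 to 4.8 kb.

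Nearest genes were recorded within 100 kb as labels of position, and no target was tested. Of 21883 protein-coding genes, 2473 (11.3%) were nearest to 1 or more members, and 117 were nearest to 5 or more. The 5 lists below are described by counts beside that share and, for the distal regions without POLR2S5, beside 4.70% of all genes.

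Of 32 genes of neuroblast and sympathetic identity, 13 (40.6%) were nearest to a member, through 27 members, and 7 (21.9%) to a distal region without POLR2S5. Mycn, the oncogene amplified in many neuroblastomas, had 5, Lmo1 had 4, and Th, which encodes the first enzyme of catecholamine synthesis, had 3. The Mycn member with the highest acetylation (chr12:12903445-12905993), 30.1 kb away, had 369, 317, 239 and 335 POLR2S5 reads, POLR2 in 3 libraries and no POLR2S2 island. At the one 87.5 kb from Tbx20, a T-box factor (chr9:24861754-24863076), POLR2S5 reads were 703, 541, 252 and 507, and POLR2S2 islands held 1093, 431 and 150 reads in the 3 libraries that had one. A region 85.0 kb from Sox11 had POLR2S5 in both replicate 2 libraries only, with 142 reads at 4% and 236 at 20% O2. All 3 had RAD21 in 2 or 3 libraries and no CTCF peak.

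Of 23 immediate early genes, the first to respond to growth and stress signals, 13 (56.5%) were nearest to a member, against 2 (8.70%) for the distal regions without POLR2S5. Fos had 6 members and Jun, its partner in AP-1, had 5. The member 3.0 kb from Ier2 (chr8:84654845-84658306) had 3430, 3591, 1656 and 3004 POLR2S5 reads in islands of 19.2 to 48.4 kb that reached genes. One at 3.9 kb from Egr4 (chr6:85517533-85519042) had free-standing islands of 132, 201 and 222 reads and none in 20% O2 replicate 1. Near Nr4a1, an orphan nuclear receptor gene, reads were 2243, 4359, 215 and 3237 in islands that reached genes. Members within a few kb of immediate early genes thus differed in whether their islands were continuous with a gene.

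Of 40 HIF targets and glycolytic genes, which low oxygen is known to induce, 12 (30.0%) were nearest to a member, against 3 (7.50%) without POLR2S5. Ddit4, the gene of an mTORC1 inhibitor, had 7, and Hk2 and Bhlhe40 had 3 each. The Ddit4 member with the highest acetylation (chr10:59930234-59931119, 18.6 kb away) had 421 and 4709 POLR2S5 reads at 4% O2, 449 in 20% O2 replicate 2 and no island in replicate 1. That 4709-read island was 61.2 kb long, while the others were 8.6 and 9.0 kb. Near P4ha2, a collagen prolyl hydroxylase gene, reads were 294, 4697 and 2557 in 3 libraries, over 2.8, 47.2 and 44.2 kb. At the region 30.4 kb from the growth factor gene Vegfa (chr17:46062799-46065064) they were 355, 1434, 232 and 290, over 5.4, 28.0, 4.4 and 5.8 kb.

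Among 30 genes of neuronal structure and synapse, 9 (30.0%) were nearest to a member and 4 (13.3%) to a distal region without POLR2S5, the former led by Elavl4, a neuronal RNA-binding protein gene, with 5. The member 33.5 kb from Snap25, a synaptic vesicle fusion gene (chr2:136677062-136679980), had free-standing islands of 602, 604, 428 and 714 POLR2S5 reads, and POLR2S2 in 3 libraries. Of 29 stress and growth regulators, 13 (44.8%) were nearest to a member and 5 (17.2%) to a distal region without POLR2S5. The member 2.9 kb from Id2, an inhibitor of differentiation factors (chr12:25098992-25102131), had 1375, 1202, 751 and 1344 POLR2S5 reads. Near Tgif1, a homeobox repressor gene (chr17:70871371-70872717), POLR2S5 reads were 432, 267, 253 and 436 and POLR2S2 reads 662, 577, 404 and 2569. At that region the serine 2 form was called in all 4 libraries, unlike at Mycn.

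**Figure D4:**
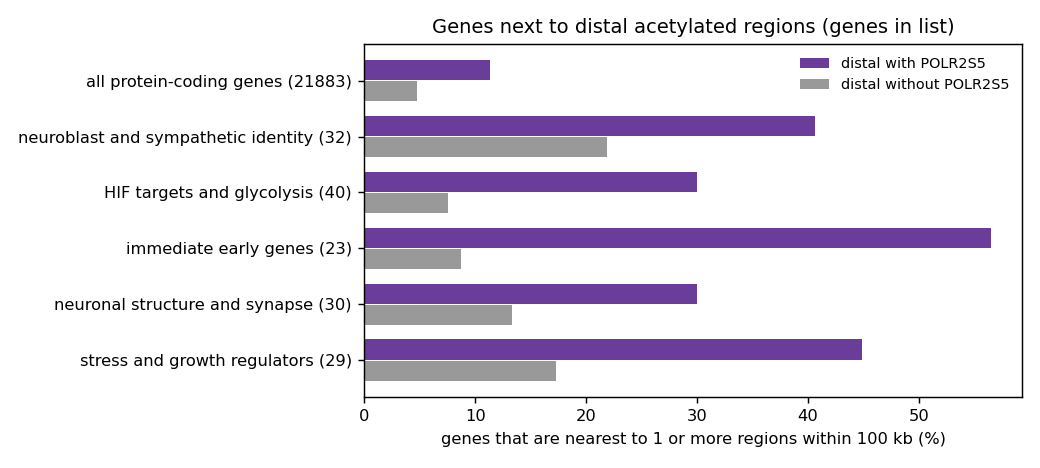
Share of the genes of each list (%, number of genes in brackets) that are the nearest protein-coding gene, within 100 kb, of 1 or more distal regions with or without POLR2S5; no test was made. All 5 lists stand between 30.0 and 56.5 for the members, against 11.3 for all protein-coding genes.

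The comparison of 4% with 20% O2 rested on which libraries had an island. POLR2 shares were 82.7 ± 0.79% at 4% O2 and 57.1 ± 48.6% at 20% O2 (SD, n = 2 each; exact permutation test, p = 1, where 2 against 2 libraries cannot go below 0.333). Within replicate 1 the difference, 4% minus 20% O2, was 59.4 points and within replicate 2 it was -8.14, so the direction was opposite in the 2 sequencing rounds. Without 20% O2 replicate 1 it was -8.69 points. For RAD21 the difference was 8.54 points (exact permutation test, p = 1), with 19.9 and -2.84 within replicates and -9.70 without that library.

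POLR2S2 and CTCF shares were higher at 4% O2 in both rounds. For POLR2S2 the shares were 42.1 ± 8.76% and 19.2 ± 16.5%, 28.3 points apart within replicate 1 and 17.4 within replicate 2 (exact permutation test, p = 0.333, n = 2 each). Without 20% O2 replicate 1 the difference was 11.2 points. Over the whole lists, POLR2S2 islands also held more reads at 4% than at 20% O2. The totals were 10.4 against 4.88 M in replicate 1 and 16.6 against 9.70 M in replicate 2. Their part in the difference was not tested. For CTCF they were 42.9 ± 0.35% and 39.8 ± 0.87%, 3.95 and 2.23 points apart within replicates (exact permutation test, p = 0.333). Gene-end regions had the same direction in both rounds for both proteins, with CTCF shares of 45.4% and 43.4% for 4% O2 and 39.0% and 38.8% for 20% O2. Whether the members differ from them in this was not tested.

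Counted by region, O2 patterns in the members were close to those of acetylated regions at large for most antibodies. POLR2S2 was called in both 4% and neither 20% O2 library at 421 members (7.96%), against 5.30% of all 39931 acetylated regions, and in the opposite pattern at 5 (0.0946%), against 0.115%. For POLR2 the counts were 102 (1.93%) against 1.40% of all, and 5 against 0.103%. CTCF had 51 members (0.965%) against 1.23%, and 6 (0.114%) against 0.110%. RAD21 had 52 (0.984%) against 1.06%, and 1 (0.0189%) against 0.0576%. In 20% O2 replicate 1 the POLR2 and RAD21 lists were the shortest of their 4. Its POLR2S2 list, at 17765 islands, was not (16174 to 18938 in the others), but its islands covered 151.8 Mb, against 236.7 to 267 Mb. The part of this library in these counts was not tested. POLR2S5 itself, which chose the members, was limited to both 4% O2 libraries at 173 members (3.27%) and to both 20% O2 libraries at 20 (0.378%). These 2 counts come from the calls that the rule used and have no share of all regions beside them. They are not read as a difference between O2 levels.

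Island reads could be compared only where all 4 libraries had an island. That held for 1072 merged POLR2 regions, which overlap 1736 of the 5286 members, and for 494 POLR2S2 regions, which overlap 803. Because the library that covers the fewest members largely decides which members enter, no count or median over them is read as a result. With edgeR's quasi-likelihood test over all 7811 POLR2 and all 5936 POLR2S2 regions, 0 regions at members passed an adjusted p of 0.05, and 0% of all regions did for either antibody. An unadjusted edgeR p under 0.05 was found at 8 of the POLR2 regions at members (0.746%), against 2.23% of all POLR2 regions, and at 24 of the POLR2S2 regions at members (4.86%), against 5.88% of all. With the replicate number as a block, 0.0256% of all POLR2 regions and 0.185% of all POLR2S2 regions passed, with 0 and 1 of them at members. DESeq2 called 0 POLR2 regions at members, against 0.0128% of all, and 1 POLR2S2 region at members, against 0.893% of all (32 higher and 21 lower at 4% O2).

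The 1 region found with the block was a long POLR2S2 stretch at P4ha1, the gene of another collagen prolyl hydroxylase subunit and a HIF target (chr10:59319001-59382000). It held 5536 and 11971 reads at 4% O2 and 558 and 2582 at 20% O2, so the O2 levels did not overlap. Scaled by TMM it was higher at 4% O2 by 1.74 ± 0.48 on the log2 scale (SE; edgeR adjusted p = 0.809), and by 1.85 ± 0.26 with the block (edgeR adjusted p = 0.0488). Within replicates the log2 ratio was 2.26 and 1.46. The member it covers (chr10:59379885-59381839) lies 6.6 kb from the gene end, and the POLR2S2 stretch overlaps the gene itself. CTCF and RAD21 were called at that member in all 4 libraries.

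Of POLR2S2 regions outside protein-coding genes, the one with the largest positive ratio covered 3 members 15.7 to 24.3 kb from the homeobox gene Pitx1 (chr13:55838001-55861400). It held 764 and 819 reads at 4% O2 and 98 and 113 at 20% O2, a log2 ratio of 1.99 ± 0.53 (SE; edgeR adjusted p = 0.800), with 1.90 and 2.09 within replicates. The reads at 4% O2 were not spread over all 3 members: the first had islands of 687 and 819 reads at 4% O2 only, while at the other 2 the only island was that of 20% O2 replicate 2, with 113 reads. Near Bahcc1, 7 members shared a region with 462, 1384, 37 and 451 reads, so that the nearest values of the 2 O2 levels hardly differed, and a log2 ratio of 1.25 ± 0.93. A region of 2 members near the Notch effector gene Hes5 had 130, 309, 21 and 99 reads and a ratio of 1.10 ± 0.61. In the other direction, a region near Slc16a1, which encodes a lactate transporter (chr3:104614201-104625000), held 30 and 98 reads at 4% O2 and 62 and 320 at 20% O2, a ratio of -2.35 ± 0.72 with -2.06 and -2.44 within replicates (edgeR adjusted p = 0.809). Regions near Mgst2 and Zcchc13 had ratios of -1.53 ± 0.89 and -1.48 ± 0.59. Per kb of island, where the median of all POLR2S2 regions is -0.37, the ratio was 0.38 at Pitx1, -0.24 at Bahcc1, -0.54 at Hes5 and -0.53 at Slc16a1, so the sizes of these ratios depend on island length. These regions were ranked by the ratio itself, and none passed the adjusted threshold.

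Ratios of POLR2 at free-standing regions were smaller. The largest positive one covered 5 members between Vegfa and Mrps18a (chr17:46060201-46089000), with 1277 and 1550 reads at 4% O2 and 150 and 1160 at 20% O2. Its log2 ratio was 0.94 ± 0.52 (SE; edgeR adjusted p = 0.992), but 2.08 within replicate 1 and 0.14 within replicate 2, and -0.41 per kb of island, near the median of -0.48 over all POLR2 regions on that scale. The island length in 20% O2 replicate 1 was 4.0 kb, against 23.4 to 27.2 kb in the other libraries. The largest negative one lay near Bst1 (chr5:43805201-43811600), with 192 and 191 reads at 4% O2 and 205 and 398 at 20% O2. Its ratio was -1.19 ± 0.39, with -1.10 and -1.33 within replicates (edgeR adjusted p = 0.992). Regions near A430033K04Rik, Gnl3l and Ostm1 had ratios of -1.15 ± 0.48, -1.12 ± 0.35 and -1.09 ± 0.40. The negative ratios were of like size in both rounds, whereas the positive ones came mostly from replicate 1. Per kb of island, the 4 negative ratios ranged from -0.79 to -0.37 and the 4 positive ones from -0.74 to -0.20, both spanning the median of -0.48. The sizes of these ratios thus also depend on island length.

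**Figure D5:**
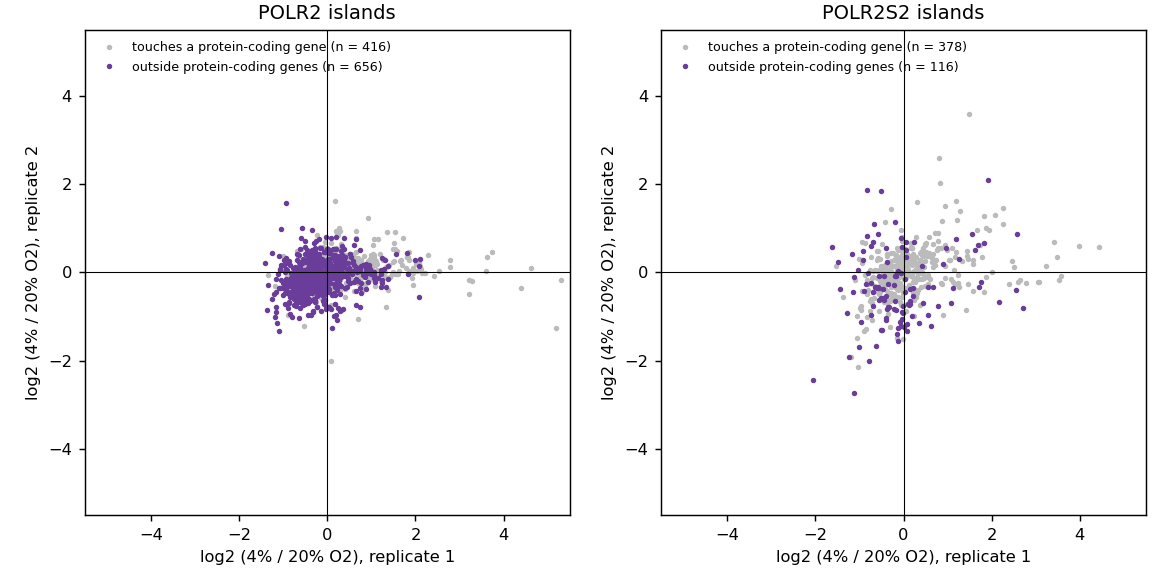
Log2 ratio of TMM-scaled island reads, 4% over 20% O2, in replicate 1 against replicate 2, for 1072 POLR2 and 494 POLR2S2 regions called in all 4 libraries that overlap a distal POLR2S5 region; each point is 1 region, coloured by contact with a protein-coding gene. POLR2 points spread along replicate 1 more than along replicate 2, and by edgeR none of these regions passed an adjusted p of 0.05 without the block.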

How the data were processed

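Peaks of CTCF, RAD21 and H3K9ac were called with MACS2, and islands of POLR2, POLR2S5 and POLR2S2 with SICER, 1 library at a time, per the file headers. BWA, Picard and the build mm10 are named per the submitters' processing notes, with no versions. Judging by its values, the deposited MACS2 score is −log10 of a q-value. Likewise, the deposited SICER value is an unscaled read count per island; library depth is unknown. Replicate 2 was read from the full-width list placed with replicate 1, whose scores equal those under its own label in 12 of 12 cases.

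Peaks were merged at 1 bp overlap and set against 21883 protein-coding and all other genes of RefSeq GRCm38.p6, the assembly of mm10. Any RefSeq gene end counted for the 2.5 kb limit. Shares of regions were compared within libraries with exact sign-flip tests and between O2 levels with exact permutation tests, all two-sided. Island reads summed over merged regions called in all 4 libraries were fitted across all such regions with edgeR 4.0.16 (quasi-likelihood, TMM, Benjamini-Hochberg), and with DESeq2 1.42.0 as an alternative. The code was tested on simulated data.

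The replicate number pairs the samples: per the file headers each number was sequenced on its own flow cells, which hold both O2 levels. Same-numbered libraries deviated together across regions, with correlations of 0.53 (POLR2), 0.55 (POLR2S5) and 0.39 (POLR2S2). Named regions are the 8 highest in H3K9ac, the 6 highest in free-standing POLR2S5 reads per kb, the 4 with the largest edgeR ratio each way per antibody outside genes, up to 3 per gene list, and those at the limits of the rule. Members, lists and tests were chosen with earlier results of these data known. The 6 input samples were not used. No genome was at hand, so motifs were sought in RefSeq start windows only.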

Additional observations from a re-analysis of the deposited data

How the results depend on the processing

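The number of members, 5286, became 1762 when POLR2S5 was required in all 4 libraries and 3312 with only H3K9ac peaks at or above the median score of their list. It stayed within 1.5 times with protein-coding gene ends only (7367), with islands covering at least 50% of a region (5163) and without 20% O2 replicate 1 (5224).

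Over 12 differences in share, 110 of 120 alternatives kept the direction and 10 turned it. CTCF against gene ends (-0.27 points) turned to 0.86 with protein-coding gene ends only, 0.67 with POLR2S5 in all 4 libraries, 0.95 with overlap of at least 50%, 2.18 with stricter peaks and, without 1 library, ranged from -0.92 to 0.40. Between H3K9ac percentiles 25 and 50, CTCF and RAD21 against distal regions without POLR2S5 turned to -1.38 and -8.50; RAD21 also turned to -0.55 with POLR2S5 in all 4. Leaving out 1 library gave 4% minus 20% O2 differences of -8.69 to 60.0 points for POLR2 and -9.70 to 26.8 for RAD21, both negative only without 20% O2 replicate 1. The cause of these turns was not tested. The POLR2 and POLR2S2 differences between sets kept their direction in every alternative run, but not their size. Against gene ends they ranged from -37.6 to -6.44 points for POLR2 and from -48.4 to -25.5 for POLR2S2. The smallest of each came with POLR2S5 required in all 4 libraries.

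With the replicate block, the mean O2 differences stay as they are, and p over 2 pairs is 0.5 for POLR2S2 and CTCF and 1 for POLR2 and RAD21 (exact sign-flip test). In edgeR, POLR2 regions at members called higher at 4% O2 numbered 0, and 0 to 47 when 1 library was left out, with 47 (of 178 in all) only without 20% O2 replicate 2, where the lone 20% O2 library is assumed to vary like the pair at 4% O2. POLR2S2 regions called higher numbered 1 (of 32 in all) by DESeq2 and 1 (of 5 in all) with the replicate block, and 0 in the other settings. The motif search over whole regions could not be run without a genome.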
